A study of Neogale vison with 6 samples.

Results

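The genes of the epithelial and mesenchymal states are 10 genes, CDH1, EPCAM and OCLN on the epithelial side, CDH2, VIM and FN1 on the mesenchymal side, and the transcription factors SNAI1, SNAI2, ZEB1 and ZEB2. They were found by symbol in a table of read counts that holds 24526 genes, and each of the 10 symbols was present once. The libraries came from Mv1Lu, an established line of mink (Neogale vison) lung cells described as epithelial. The cholesterol depletion (CD) treatment combined 50 μM lovastatin (an inhibitor of HMG-CoA reductase), 50 μM mevalonate and medium with 10% lipoprotein-deficient serum (LPDS), for 16 h. The RNA-seq comparison comprised 3 CD libraries and 3 libraries of untreated cells (control), all of the same line. The labels do not state the serum or vehicle of the control cells, so that the parts of serum, lovastatin and mevalonate in any difference cannot be told apart. Nothing in the labels says whether the replicates were separate cultures, so the p-values measure the spread between these libraries, which may be technical.

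Epithelial cells are joined to their neighbors by adherens junctions, built on the calcium-dependent cadherins, and sealed by tight junctions. In the epithelial to mesenchymal transition (EMT), cells lose these contacts, exchange E-cadherin for N-cadherin, build filaments of vimentin and deposit fibronectin. The zinc finger repressors of the Snail and ZEB families bind E-box sequences in the promoters of E-cadherin and other epithelial genes, and transforming growth factor-β (TGF-β), to which Mv1Lu cells are a classical responder, is a well-known inducer of this program.

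The reads counted on genes ranged from 13473820 to 18633764 per library, and reads that could not be assigned to a gene made up between 29.3% and 47.2% of all reads, with the highest share in control replicate 1. Counts were compared by the quasi-likelihood test of edgeR over 12148 genes with enough counts, and a difference was called at a false discovery rate (FDR) under 0.05. Levels are given as CPM, the share of a gene in the TMM-scaled counts of its library expressed in parts per 10 to the power of 6, which serve to compare libraries and not genes, as they are not corrected for gene length. Means are given ± SD over the 3 libraries of a group. CD replicates 1 and 3 lay at opposite ends of the second principal component (12.3% of the variance), and CD libraries had a higher biological coefficient of variation (0.213) than control libraries (0.0852).

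Of the 10 genes, 7 had enough counts to be tested, and 4 of these were called. ZEB2, ZEB1 and CDH2 were higher and SNAI1 was lower in CD (FDR under 0.05, edgeR), while OCLN, VIM and FN1 were not called. CDH1, EPCAM and SNAI2 were below the filter on low counts. Over all genes tested, 24.8% were called higher and 22.9% lower (47.7% in either direction), so that the share of members called was near that of the whole table. For the same 4 genes the groups did not overlap, with CD above control for 3 and below for 1, as was the case for 58.0% of all tested genes (29.5% above and 28.6% below). ZEB1 and ZEB2 were the 2 members called with a change of at least 2-fold upward, against 10.6% of all tested genes, and 0 were called at least 2-fold lower, against 9.64%. In RNA from whole cultures, fewer cells of a type and less RNA per cell cannot be told apart. The median log2 fold change of the 7 tested members was 0.063, against 0.057 for all tested genes. The log2 fold change of ZEB2 was exceeded by that of 203 of the 12148 tested genes (1.67%), that of ZEB1 by 8.36% and that of CDH2 by 16.7%, whereas 13.3% of the tested genes lay below SNAI1.

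**Figure D1:**
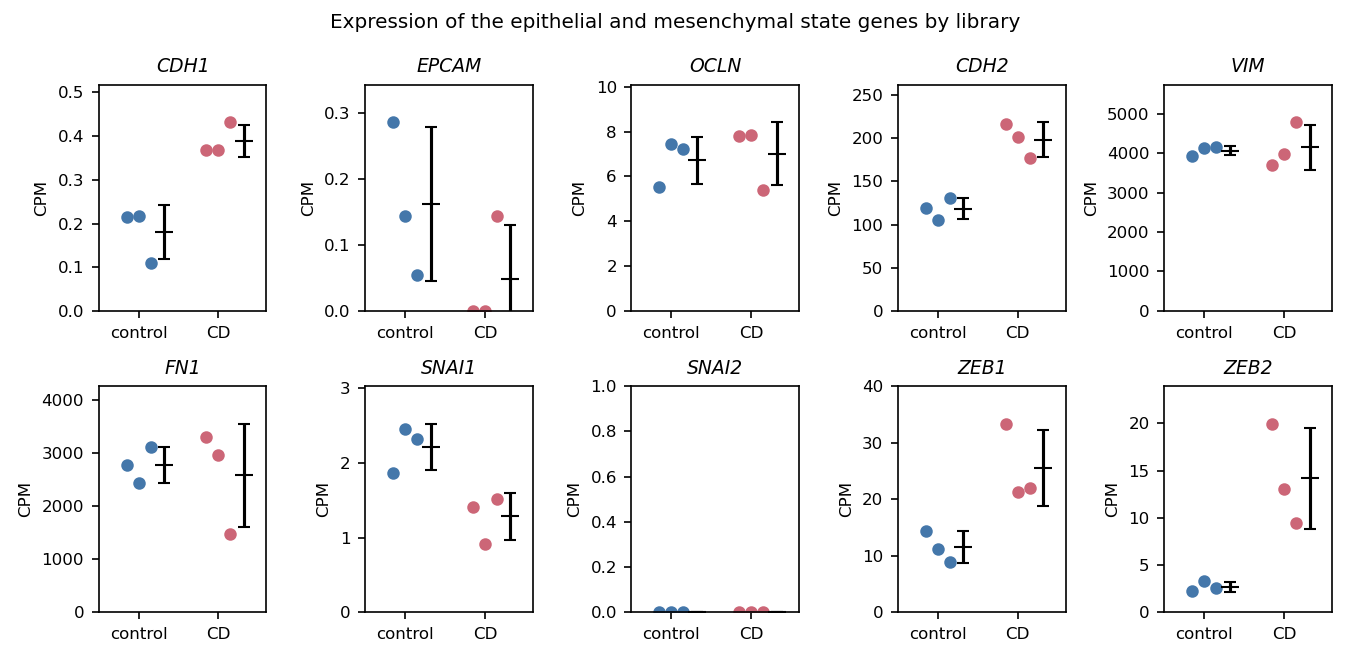
Expression of each member in CPM (linear axis from 0, one scale per gene) in the control (blue) and CD (red) libraries, with replicates 1, 2 and 3 from left to right; the black mark and bar give the mean ± SD of 3 libraries, cut at 0 for EPCAM. ZEB1, ZEB2 and CDH2 lay higher in every CD library, SNAI1 lower, and SNAI2 was at 0 throughout.

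On the epithelial side, CDH1 and EPCAM were close to the limit of detection in both groups, whereas OCLN had between 75 and 131 counts in every library. CDH1 (ENSNVIG00000008502), which encodes E-cadherin, the adhesion molecule of epithelial adherens junctions, had 3, 3 and 2 counts in control replicates 1, 2 and 3, whereas each of the 3 CD libraries had 6. Every CD library was thus above every control library, but the whole difference rests on 8 against 18 counts. The ratio of CD to control was 2.23. Its 95% interval, by the Clopper-Pearson method and for counting error only, ran from 0.921 to 5.91, so that a difference was not detectable at this depth. Without the filter on low counts, the gene was not called either (log2 fold change 1.11, standard error 0.61, FDR 0.18, edgeR), against 33.6% of 17882 genes that were.

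EPCAM (ENSNVIG00000023254) encodes a surface adhesion molecule that marks most simple epithelia. Control libraries held 4, 2 and 1 counts of it, and CD libraries 0, 0 and 2. The groups overlapped, and the ratio of CD to control, 0.283, had a counting interval of 0.0286 to 1.48. A count of 0 allows up to 3 counts in a library, or between 0.165 and 0.217 CPM at these depths. CDH1 in the CD libraries, with 6 counts each, lay above this range.

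OCLN (ENSNVIG00000015045) encodes occludin, a membrane protein of tight junctions. It was at 5.51, 7.44 and 7.21 CPM in the control and at 7.80, 7.85 and 5.40 CPM in the CD libraries. The lowest value of both groups belonged to CD replicate 3, and the groups overlapped over nearly their whole range. Mean levels were 6.72 ± 1.05 and 7.01 ± 1.40 CPM (n = 3 each). The log2 fold change was 0.063 (standard error 0.22, FDR 0.83, edgeR), and its 95% interval ran from -0.42 to 0.55. The sign turned when control replicate 1, CD replicate 1 or CD replicate 2 was left out.

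In contrast to CDH1 and EPCAM, the mesenchymal members were detected with at least 1465 counts in every library. CDH2 (ENSNVIG00000019000) encodes N-cadherin, the cadherin that takes the place of E-cadherin in mesenchymal cells. Its level was 119, 106 and 130 CPM in the control and 217, 201 and 177 CPM in the CD libraries. All CD libraries were above the highest control library, and the lowest CD value was that of replicate 3. The mean rose 1.67-fold, from 118 ± 12.3 to 198 ± 20.2 CPM, or by 0.74 ± 0.13 on the log2 scale (± standard error, FDR 8.97e-04, edgeR). This gene was called in all 14 alternative settings, with log2 fold changes between 0.66 and 0.81.

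VIM (ENSNVIG00000001870) encodes vimentin, the intermediate filament protein of mesenchymal cells. It was at 3930, 4122 and 4149 CPM in the control and at 3688, 3977 and 4784 CPM in the CD libraries. CD replicate 1 gave the lowest and CD replicate 3 the highest value of all 6 libraries, with the control libraries in between. Means of 4067 ± 119 CPM (control) and 4149 ± 568 CPM (CD) resulted, and the log2 fold change of 0.029 had a 95% interval of -0.28 to 0.34 (FDR 0.88, edgeR).

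FN1 (ENSNVIG00000010336) encodes fibronectin, a glycoprotein of the extracellular matrix. Levels of 2785, 2431 and 3121 CPM in the control libraries compared with 3308, 2961 and 1485 CPM in the CD libraries. CD replicates 1 and 2 were within or above the control range, and CD replicate 3 was below it. The log2 fold change was -0.10 (standard error 0.26, 95% interval -0.68 to 0.47, FDR 0.76, edgeR). Without CD replicate 3 it was 0.14 (FDR 0.36), so that the sign of the value, though in neither case called, was set by that library. VIM turned in the other direction, to -0.12 (FDR 0.43, edgeR), when the same library was left out.

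Among the transcription factors, both ZEB genes were higher and SNAI1 was lower in CD. ZEB2 (ENSNVIG00000003880), a zinc finger and homeobox repressor also known as SIP1 that binds activated Smad proteins, gave 2.22, 3.32 and 2.53 CPM in control libraries. In CD libraries it reached 20.0, 13.1 and 9.50 CPM. The lowest CD library was well above the highest control library, although the CD libraries themselves spread widely, with CD replicate 1 at the top and CD replicate 3 at the bottom. These values rest on 123 control and 670 CD counts in all. The mean rose 5.28-fold, from 2.69 ± 0.568 to 14.2 ± 5.32 CPM, or by 2.40 ± 0.30 on the log2 scale (± standard error, FDR 1.33e-04, edgeR), a value that ranged from 2.08 to 2.58 when single libraries were dropped.

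ZEB1 (ENSNVIG00000000332), the paralog of ZEB2 and a repressor of CDH1 in many epithelia, was at 14.5, 11.3 and 8.87 CPM in the control and 33.3, 21.3 and 21.95 CPM in the CD libraries. The groups did not overlap, and CD replicate 1 was again the highest library. Its mean rose 2.22-fold, from 11.5 ± 2.81 to 25.5 ± 6.78 CPM, or by 1.15 ± 0.24 on the log2 scale (± standard error, FDR 0.00272, edgeR). Between 0.92 and 1.34 were obtained with 1 library left out, and both ZEB genes were called in all 14 alternative settings.

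The increase of ZEB2 was compared with that of ZEB1 as the ratio of both genes within each library, which hardly depends on the scaling of the libraries. The log2 ratio of ZEB2 to ZEB1 was -2.63, -1.72 and -1.76 in control and -0.74, -0.70 and -1.20 in CD replicates 1, 2 and 3. It rose in CD by 1.16 on the log2 scale, and all CD libraries were above all control libraries (p = 0.1 by a two-sided exact permutation test, which cannot give less with 3 libraries in each group). Thus the paralog with the larger change was ZEB2, at a p that this design cannot bring below 0.05.

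SNAI1 (ENSNVIG00000007541) encodes Snail, a repressor of CDH1 that is often among the first factors to rise in EMT. It had few reads, with 26, 34 and 42 control and 23, 15 and 21 CD counts, or 1.86, 2.46 and 2.31 CPM against 1.41, 0.920 and 1.51 CPM. All CD libraries were below all control libraries. The level fell 1.73-fold (log2 fold change -0.79, standard error 0.27, FDR 0.0341, edgeR), in the direction opposite to the ZEB genes. This call was the least firm of the 4. It was lost in DESeq2 (FDR 0.0954) and without control replicate 2 (FDR 0.106), control replicate 3 (FDR 0.105) or CD replicate 2 (FDR 0.112, edgeR).

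SNAI2 (ENSNVIG00000002904), which encodes Slug, the other Snail repressor with a broad role in EMT, had 0 counts in all 6 libraries. A count of 0 allows a level of up to 0.217 CPM in a library, and no change could be measured. For this reason no ratio of SNAI2 to SNAI1 is given.

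**Figure D2:**
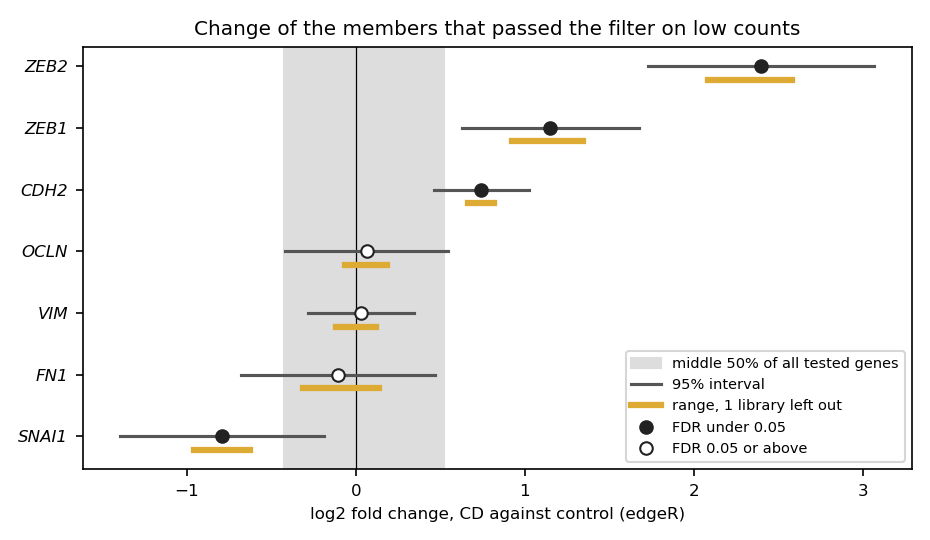
Log2 fold change (CD against control, edgeR) of the 7 members tested, with the 95% interval (dark line) and the range over fits with 1 library left out (yellow line); filled points had an FDR under 0.05, and the gray band holds the middle 50% of all 12148 tested genes. ZEB2, ZEB1 and CDH2 lie to the right of the band and SNAI1 to the left, while OCLN, VIM and FN1 lie within it.

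The exchange of cadherins that marks EMT was followed as the ratio of CDH2 to CDH1. The log2 ratio, with a prior count of 2, was 8.44, 8.26 and 9.09 in control libraries, against 8.77, 8.66 and 8.30 after CD. The groups overlapped, and the difference was -0.018 (exact permutation test, two-sided p = 1). The ratio of VIM to CDH1 was lower in CD by a log2 difference of -0.74, from 13.7 ± 0.330 to 13.0 ± 0.101, with no overlap (p = 0.1 by the same exact test). As VIM itself was not called, this ratio mainly restates the 8 against 18 counts of CDH1, a difference that was not detectable. Both ratios have between 2 and 6 counts of CDH1 in their denominator, and with a prior count of 0.5 the differences became -0.29 and -1.01, so that their size depends on how these few counts are treated.

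For the epithelial member OCLN and the mesenchymal member VIM, genes with a like pattern over the 6 libraries were sought. The genes with the highest Pearson correlation of log2 CPM with OCLN were FSD2 (0.98), PRSS8 (0.98), a membrane-bound serine protease of epithelia, and ZBT8A (0.97), and of 10082 genes with a symbol 13 were above 0.9. With VIM they were KCMB4, LAMTOR4 and NME2 (0.99 each), and 153 genes were above 0.9. These values are a description over 6 libraries, with no test, and include differences between libraries in treatment and depth.

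The members were next set beside the other genes of both states, which were examined as 7 lists of 113 genes. Symbols of 99 were present, and 70 genes passed the filter. With edgeR, 24 of the 70 were called higher and 18 lower in CD, where 47.7% of all tested genes were called in either direction. Genes that pass the filter on low counts through a single group are admitted by their higher level there, and 61 of the 70 passed it in both groups. Of these 61, 18 were higher and 17 lower (57.4% called), against 47.1% called of the 11262 genes of the whole table that passed it in both groups. The 7 tested members all passed it in both groups. Of the 24 higher genes, 20 were called in every alternative in which they were tested, and of the 18 lower genes 14.

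Among tight junction genes, 5 were higher and 1 lower of 10 tested (median log2 fold change 0.64). For this and the other lists, the shares over all tested genes were 24.8% higher and 22.9% lower. CLDN4 and MARVELD2, the latter a protein of tricellular junctions, passed the filter through the CD libraries alone, and of the 8 other genes 3 were higher and 1 lower. The call of MARVELD2 was lost in 4 of 13 alternatives (FDR up to 0.125 over the alternatives). CLDN4, a claudin, rose from 0.603 ± 0.231 to 7.02 ± 1.11 CPM (log2 fold change 3.55, FDR 9.61e-06, edgeR), while CLDN1, another claudin, fell from 7.25 ± 0.749 to 1.36 ± 0.546 CPM (log2 fold change -2.42, FDR 8.14e-05). PARD6B, a polarity protein, was higher by 1.05 on the log2 scale (FDR 0.0198, edgeR), a call lost in 5 of 6 fits with 1 library left out (FDR between 0.0529 and 0.0763). OCLN, the tight junction gene among the members, was not called. In the list of adherens junctions and desmosomes, 8 of 15 were higher and 3 lower (median 0.32), or 7 and 3 of the 14 that passed the filter in both groups. The desmosome genes DSG2, DSP and PKP3 rose by 1.73, 1.46 and 2.04 on the log2 scale (FDR 2.73e-04, 0.00140 and 0.00723, edgeR). PKP3 had 3, 10 and 2 counts in control libraries, and its log2 fold change was 3.08 without control replicate 2 and 1.55 without control replicate 3. By contrast PKP2, a further plakophilin, fell (log2 fold change -0.95, FDR 0.00837, edgeR).

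Of the keratins, the filament proteins that mark epithelial cells in contrast to VIM, 6 were tested. The 5 called (against 47.7% of all tested genes) changed in both directions, and KRT10 was not called (log2 fold change 0.50, FDR 0.0698, edgeR). Of 38 keratin genes in the table, 32 were under the filter on low counts, KRT5 with 0 counts among them. KRT7 was at 7167, 6837 and 7361 CPM in the control and 1098, 1256 and 1410 CPM in the CD libraries, a 5.68-fold fall (log2 fold change -2.50, standard error 0.15, FDR 1.10e-06, edgeR). KRT19 fell 2.04-fold (FDR 2.74e-04) and KRT14 rose 4.69-fold (FDR 1.68e-06, edgeR). The value of KRT14 is uncertain, as it may share stretches with other keratins, whose sequences were not compared here. Of 6 tested genes of the list of epithelial keratins and surface proteins, KRT7, KRT19 and KRT14 were the 3 called (median log2 fold change -0.070). The epithelial regulators had 2 higher genes of 8, ELF3 (log2 fold change 2.48, FDR 2.01e-04, edgeR) and KLF5 (0.66, FDR 0.00293), both transcription factors, and none lower (median 0.42). ELF3 passed the filter through the CD libraries alone, and of the 5 regulators that passed it in both groups 1 was higher and 0 were lower.

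Among the other transcription factors linked to EMT, 2 were higher and 1 lower of 8 tested (median log2 fold change 0.084), against 24.8% and 22.9% of all tested genes. TWIST1, a basic helix-loop-helix factor, rose from 8.27 ± 0.753 to 13.5 ± 1.27 CPM (log2 fold change 0.70, FDR 0.00703, edgeR) and was called in all 14 alternatives. FOXC1, a forkhead factor, was higher by 0.80 on the log2 scale (FDR 0.0152, edgeR), and its call was lost without control replicate 2 or 3 or CD replicate 2 (FDR 0.05002, 0.0799 and 0.0634).

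The mesenchymal genes beside CDH2, VIM and FN1 changed in both directions. Of 15 tested genes of matrix and adhesion, 5 were higher and 6 lower (median log2 fold change 0.056), or 4 and 6 of the 14 that passed the filter in both groups. Over all tested genes, 24.8% were higher and 22.9% lower. CDH11, the mesenchymal cadherin next to CDH2 in these lists, fell from 254 ± 1.64 to 33.0 ± 5.52 CPM (log2 fold change -2.94, FDR 3.94e-07, edgeR) while CDH2 rose. MMP2, a gelatinase, had 2, 2 and 3 counts in control and 57, 57 and 51 counts in CD libraries (log2 fold change 4.47, FDR 2.90e-06, edgeR). In the list of the mesenchymal cytoskeleton 5 of 8 were lower and 1 was higher (median -1.003), with MYL9, a myosin light chain, at -2.67 (FDR 8.65e-07), TAGLN, an actin-binding protein of contractile cells, at -2.69 (FDR 4.28e-05) and CNN1, another such protein, at 3.20 (FDR 0.00111, edgeR). CNN1 had 3, 2 and 0 control counts against 17, 19 and 14 after CD, and its log2 fold change was 3.93 without control replicate 1 and 2.52 without control replicate 3. Like CLDN4, ELF3 and PKP3, both MMP2 and CNN1 passed the filter only through the CD libraries, where they were high, so that their fold changes rest on few control counts. TAGLN, with 48, 51 and 48 control and 9, 8 and 6 CD counts, passed it only through the control libraries. Of the 6 other genes of this list, 4 were lower and 0 higher.

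**Figure D3:**
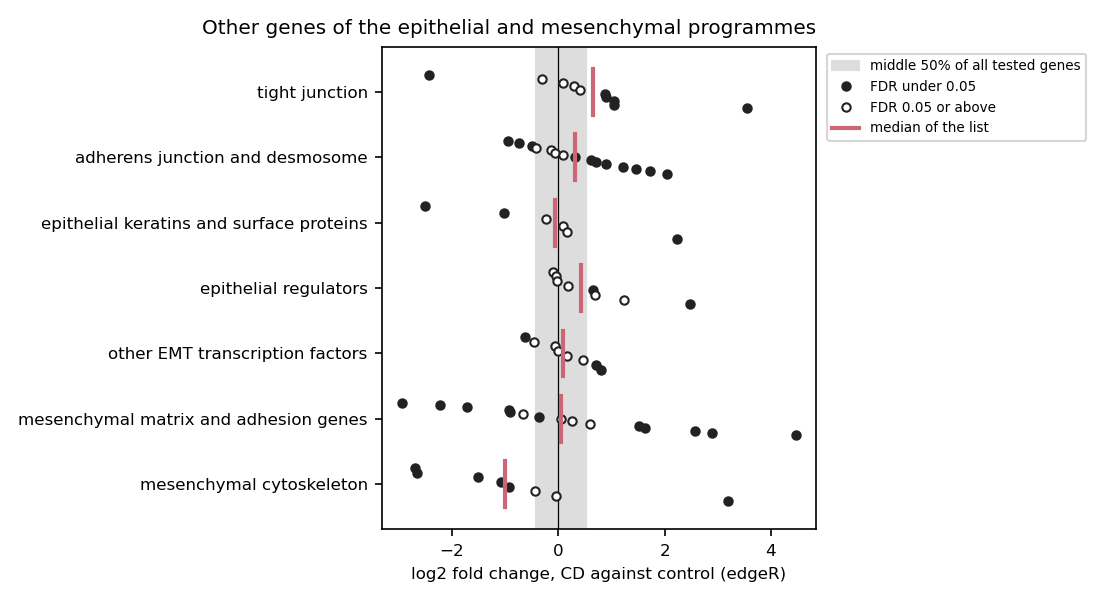
Log2 fold change (CD against control, edgeR) of each tested gene of the 7 lists, by list; filled points had an FDR under 0.05, the red bar is the median of the list, and the gray band holds the middle 50% of all tested genes. All lists but that of the epithelial regulators held both higher and lower calls, and the median of the mesenchymal cytoskeleton was -1.003.

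**Figure D4:**
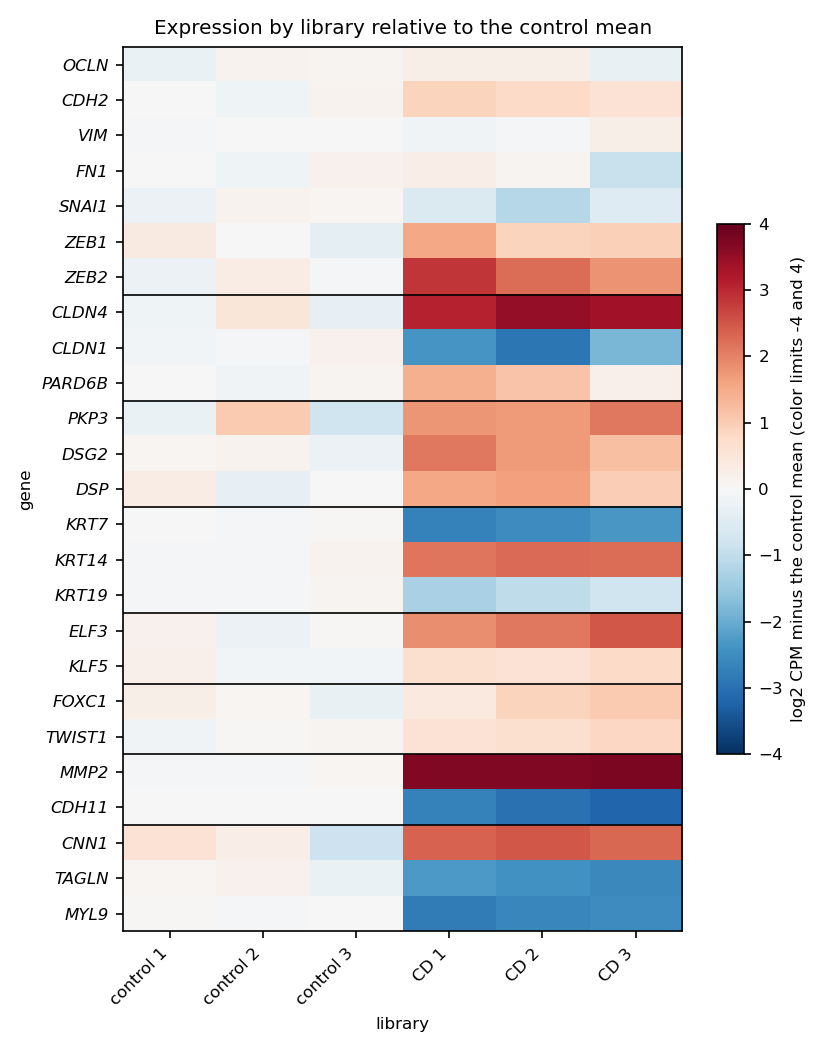
Log2 CPM (prior count 2) minus the control mean in each of the 6 libraries, for the 7 tested members (top block) and the called genes shown from the 7 lists; red is above and blue below the control mean, with color limits at -4 and 4. FN1 is lowest in CD replicate 3, and ZEB1 and ZEB2 are highest in CD replicate 1.

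The labelled cell type was checked against markers of the cells that a lung culture could hold. Of 10 lung epithelial markers found, 3 passed the filter, and SFTPB and SFTPC, the surfactant genes of alveolar type II cells, had 0 counts in all libraries. CDH1 and EPCAM were also at or near 0, whereas KRT7 and KRT19 were detected in every library. Surface proteins (ST14, PRSS8 and LSR) and regulators (GRHL1, ESRP2, KLF4, KLF5 and CDS1) passed the filter in both groups. In their lists, 5 and 6 genes were under the filter. The epithelial label thus rests here on such genes, keratins and junction genes, while KRT8, KRT18 and MUC1 were not matched by symbol. The summed level of the lung epithelial markers was 67.5 to 86.3 CPM in the control and 91.1 to 137 CPM in the CD libraries, most of it from ABCA3, a lipid transporter (72.7 ± 9.43 and 118 ± 26.1 CPM), with AGER next. Among the 3 tested, ABCA3 was called higher, SCGB1A1, a club cell secretory protein, was called lower (log2 fold change -1.21, FDR 0.0125, edgeR) and AGER was not called, and their median log2 fold change was -0.28, opposite in sign to the change of the sum. The 12 fibroblast and smooth muscle markers summed to 313 to 391 CPM in the control and 187 to 235 CPM in the CD libraries, with THY1 and TCF21 at 0 and COL1A2 and COL3A1 at the top. For the 8 endothelial markers the sums were 215 to 228 CPM and 79.3 to 128 CPM, most of it TEK followed by EGFL7, with CLDN5 at 0 and CDH5 at 1 count in all. For 6 leukocyte markers they were 5.56 to 6.66 CPM and 21.1 to 25.9 CPM, carried by CD68 and CSF1R, with CD79A and LYZ at 0 and PTPRC at 1 count. None of these 4 sums overlapped between the groups, and their part in the changes of the members was not tested.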

How the data were processed

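RNA of Mv1Lu cells was sequenced as 3 control and 3 CD libraries, grouped by the sample labels. By the study's methods, Nextera XT libraries were made from poly(A)-selected RNA, and reads were trimmed with fastp 0.20.1, aligned to the mink assembly NNQGG.v01 with STAR 2.7.2a and compared with DESeq2 1.30.1. The program and strand setting of the counting are not given in the sources used here, so overlapping and antisense genes cannot be told apart, and genes with near-identical copies are uncertain. The authors deposited raw counts of 24526 genes, without normalization, besides 4 read totals without a gene name, left out here. Their normalized expression per library was not used.

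Counts were tested with edgeR 4.0.16 in R 4.3.3 (filterByExpr with a minimum count of 10 and a minimum total of 15, TMM, robust glmQLFit, glmQLFTest, condition as the only term), with Benjamini-Hochberg adjustment over all 12148 genes. The standard error is the log2 fold change divided by the square root of F. Scripts were tested on simulated data. Alternatives were DESeq2 1.42.0, limma-voom (limma 3.58.1), 3 other scalings, 2 other filters, each library left out, the replicate number as a block, an FDR of 0.01 (for numbers of genes only) and, for ratios, a prior count of 0.5. The members and lists were chosen with earlier results of these data known. Named besides the members were, per list, up to 3 called genes with the largest change and no overlap between groups, the top 2 markers per cell type, the 3 genes most correlated with OCLN and VIM, and genes whose value is given beside these (PKP2, MARVELD2, and in the closing section members of gene families), chosen after their values were seen. Some genes that this rule selects are not reported here. Counting intervals and floors cover counting error only. Of the listed symbols, CTNNB1, KRT8, KRT18 and MUC1 were among those not matched, and their genes were not analysed here. No sequence or coordinate is given, as the annotation at hand is of assembly ASM_NN_V1.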

Additional observations from a re-analysis of the deposited data

How the results depend on the processing

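Of the 4 calls among the members, those of ZEB2, ZEB1 and CDH2 held in every alternative, and no called member changed direction. The number of members called lower fell from 1 to 0 in DESeq2, with a minimum of 50 counts in 3 libraries (where SNAI1 was not tested) and at an FDR of 0.01, and was 0 to 1 with 1 library left out, whereas the number called higher remained 3 throughout. Over all genes, an FDR of 0.01 left 2006 higher and 2036 lower, against 3016 and 2784. With 1 library left out, log2 fold changes of members that were not called passed through 0, from -0.063 to 0.18 for OCLN, from -0.12 to 0.12 for VIM and from -0.31 to 0.14 for FN1, and the log2 difference in the ratio of CDH2 to CDH1 ran from -0.19 to 0.23, with positive values without control replicate 3 or CD replicate 3; the cause was not tested. Over the 14 alternatives, 19 to 32 genes of the 7 lists were higher and 14 to 20 lower, with the most higher genes (32) without CD replicate 3. Replicate numbers are shared by both groups, but libraries with the same number did not deviate together (correlations over genes of -0.024, -0.33 and -0.18 for numbers 1, 2 and 3), so they were not treated as pairs. With the replicate number as a block, 3 members were higher and 1 lower as before, and 2772 and 2636 genes over all. Depth limits CDH1, EPCAM and SNAI2, which had at most 6 counts in any library, and the call of SNAI1, which had at most 42.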

Other observations

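The gene families to which the members CDH1, CDH2 and OCLN or their partners belong were also read out whole, by symbol, a choice made after their values were seen. Of 20 cadherin genes with a numbered CDH symbol, 7 were tested, 3 were higher and 3 lower in CD (edgeR, FDR under 0.05), against 47.7% called of all tested genes, and 4 had no counts. CDH2 rose, as did CDH16 and CDH23, from 4 counts each in the control to 59 and 39 counts in the CD libraries (log2 fold change 3.75 and 3.15, FDR 4.56e-04 and 0.00190, edgeR). Both passed the filter on low counts only through the CD libraries, and without control replicate 1 the values were 5.03 and 4.44. CDH6 fell from 57.0 ± 2.91 to 15.8 ± 4.87 CPM (log2 fold change -1.84, FDR 8.23e-05, edgeR), and CDH24 from 72.6 ± 12.3 to 22.2 ± 1.38 CPM (log2 fold change -1.71, FDR 1.47e-05, edgeR), beside CDH11. Of CDH2, CDH6, CDH11 and CDH24, which had the most counts in the control group, CDH2 alone rose.

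Of 38 keratin genes with a numbered KRT symbol 6 were tested, with 2 higher and 3 lower, against 24.8% and 22.9% of all tested genes. KRT8 and KRT18 were not matched by symbol and are not among them. KRT16, a type I keratin of stressed and regenerating epidermis, rose from 182, 184 and 226 CPM in the control to 2045, 2443 and 2598 CPM in the CD libraries (log2 fold change 3.58, standard error 0.16, FDR 2.86e-07, edgeR), in the same direction as KRT14 and opposite to KRT7 and KRT19. The sequences of KRT14 and KRT16 were not compared here. If they share long stretches, reads may have been split between them or lost in counting, which was not tested. Of 14 claudin genes 3 were tested and 3 called, against 47.7% of all tested genes. CLDN15 fell beside CLDN1 (log2 fold change -2.61, FDR 2.11e-05, edgeR), while CLDN4 rose.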
